A study of Fragaria vesca with 18 samples.

Results

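In yellow-achene fruit of Fragaria vesca (Hawaii4), the woodland strawberry, RNA depleted of its polyadenylated molecules was compared with RNA depleted of ribosomal RNA. The comparison took 6 of the 18 libraries of the series, chosen by their labels alone: 3 poly(A)-depleted and 3 rRNA-depleted libraries of mature fruit whose achenes, the small dry fruits on the berry surface, were yellow. The other 12 libraries hold the same pair of RNA kinds from immature fruit with green achenes and mature fruit with brown achenes, and are used only to show where the yellow stage differs. All plants were untreated and grown in a greenhouse, and each replicate combined fruit of several plants, so that differences between plants do not show in the spread. Both kinds of library were made from TRIzol total RNA and sequenced as stranded read pairs on an Illumina HiSeq instrument. The labels do not say whether the libraries of the 2 kinds with equal replicate numbers came from the same RNA.

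Most messenger RNAs of a plant cell end in a poly(A) tail added after the transcript is cut, and removing tailed molecules leaves RNAs that never receive a tail, that have lost it, or that are cut or unfinished. Removing ribosomal RNA instead keeps tailed and untailed RNAs together. Long noncoding RNAs (lncRNAs) are long transcripts without an annotated protein product; some are tailed like messenger RNAs and others are not, and they are sorted by where they lie relative to genes. The 61763 rows of the count table carry 5 name prefixes, taken to mean 28588 annotated genes (FvH4), 19247 lncRNAs between genes, or intergenic (LINC), 12662 lncRNAs opposite to exons (exonAS), 821 opposite to introns (intronAS) and 445 within introns on the gene's own strand (INTRONIC). No gene ID could be paired with a gene name, so rows are given by ID and no function is stated for any of them. No sequence is shown for the same reason: no genome of the files' build was used.

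The poly(A)-depleted yellow libraries held 9.54, 11.3 and 9.49 M counts, and the rRNA-depleted ones 66.0, 75.2 and 66.4 M. Of all rows, 5401 were at 0 in the 6 libraries and 49630 had enough counts to be tested. Among the rRNA-depleted libraries, library 2 stood apart: 0.5 of its intergenic counts lay in 61 rows, against 595 and 1068 rows in libraries 1 and 3, and it held counts in 9712 intergenic rows against 13312 and 13002. Its composition factor from TMM (trimmed mean of M values, the scaling used throughout unless another is named) was 0.327, with 0.592 and 0.614 in the other rRNA-depleted libraries and 1.79 to 2.33 in the poly(A)-depleted ones. These factors multiply library totals, so fold changes in yellow fruit depend on the scaling. Other scalings are given below for the classes and for some lists and rows. Directions given without another scaling hold for TMM over all rows only. The median log2 fold change of all tested rows, poly(A)-depleted over rRNA-depleted, was 0.55 by this scaling, 1.23 with TMM factors from annotated genes alone and 2.51 with library totals alone.

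Shares of the library total need no scaling and showed which classes took more of the sequenced RNA once tailed RNA was removed. Intergenic rows took 11.8%, 14.8% and 15.4% of the counts of the 3 poly(A)-depleted libraries and 1.78%, 1.49% and 2.67% of the rRNA-depleted ones. Each poly(A)-depleted library lay above each rRNA-depleted library, and the mean share was 7.07 times as large (14.0 ± 1.94% against 1.98 ± 0.611%, mean ± SD, n = 3). The smaller intron-based classes moved the same way, with intronic antisense rows at 0.339%, 0.369% and 0.402% against 0.110%, 0.0662% and 0.109%, and intronic sense rows at 0.171%, 0.212% and 0.224% against 0.0278%, 0.0198% and 0.0403%. Neither class overlapped between the kinds.

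Exonic antisense rows and annotated genes took less of the poly(A)-depleted libraries. Exonic antisense rows held 16.7%, 17.8% and 17.2% of the poly(A)-depleted counts and 23.6%, 25.2% and 25.6% of the rRNA-depleted counts, a difference of -7.57 percentage points. That difference was -2.67 points once the row with the largest share in each kind was left out; the larger of these is exonAS.XLOC_011569, described below. Annotated genes held 71.0%, 66.8% and 66.8% against 74.5%, 73.2% and 71.6%, a difference of -4.89 points, which was -9.80 points without the row of largest share in each kind and -10.6 points without contig genes. The rows of largest share were FvH4_c1g00230 and exonAS.XLOC_011569. The gene FvH4_3g20030, whose counts are close to those of the latter, was kept, and shares without both were not computed. None of the shares overlapped between the kinds. For each of the 6 shares compared, the contig genes described below included, the two-sided exact permutation test gave p = 0.1 (adjusted 0.1), which is the smallest p that 3 libraries against 3 can give.

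**Figure D1:**
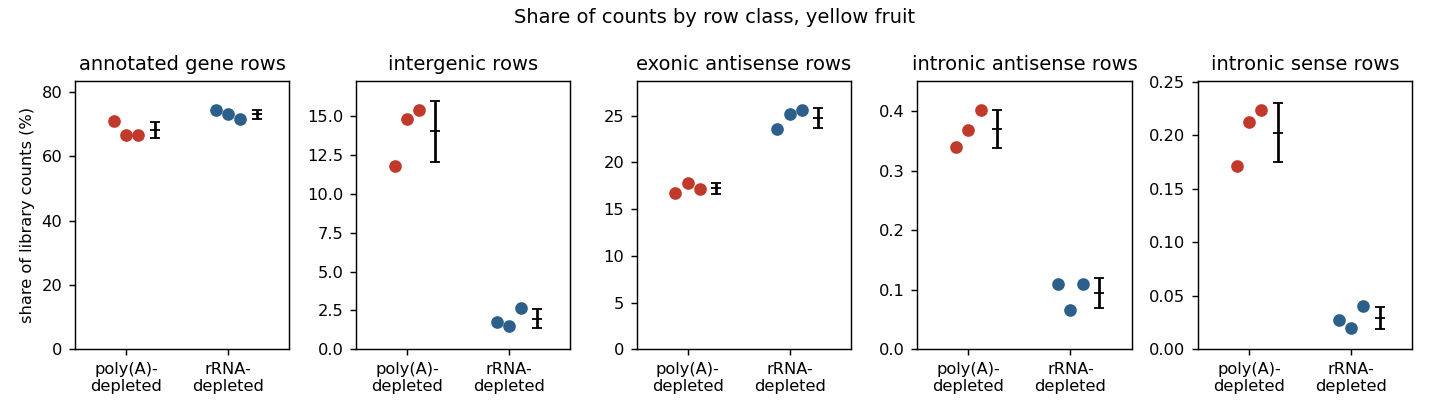
Share of the library total (%) held by each row class in the 3 poly(A)-depleted (red) and 3 rRNA-depleted (blue) yellow libraries; points are libraries 1 to 3 from left to right and bars are mean ± SD. Intergenic shares sit between 11.8% and 15.4% in poly(A)-depleted and between 1.49% and 2.67% in rRNA-depleted libraries, while exonic antisense shares are lower in poly(A)-depleted libraries, and each panel has its own scale.

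Row by row, intergenic and intronic sense rows were more often higher than lower without tailed RNA. With edgeR's quasi-likelihood test and Benjamini-Hochberg adjustment over all rows (adjusted p under 0.05), 67.7% of all tested rows were called, 35% as higher and 32.8% as lower once tailed RNA was removed. Among 10793 intergenic rows tested, 7318 were higher and 308 were lower; the median log2 fold change was 1.68 beside 0.55 for all rows. Intronic sense rows followed the same pattern, with 111 of 212 higher, 26 lower and a median of 1.45. Annotated genes divided, with 6828 of 25661 higher and 10464 lower (median -0.34). Exonic antisense rows divided in similar proportions, with 2937 of 12365 higher and 5331 lower (median -0.61). Intronic antisense rows were balanced, with 158 of 599 higher and 128 lower (median -0.03).

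The scaling decided which way the divided classes leaned, and not which way the intergenic class leaned. With TMM factors from annotated genes only, 47.6% of all rows were higher and 25.2% lower. Genes then split into 9995 higher and 8143 lower, exonic antisense rows into 4314 and 4066, intronic antisense rows into 233 and 69, and intergenic rows into 8957 and 211. With library totals alone, 60.6% of all rows were higher and 8.72% lower. Genes then stood at 13679 higher and 2943 lower, exonic antisense rows at 6080 and 1330, and intergenic rows at 9837 and 44. The medians of genes, exonic antisense and intronic antisense rows changed sign between scalings (genes -0.34, 0.35 and 1.64), while those of intergenic rows (1.68, 2.34 and 3.6) and intronic sense rows (1.45, 2.11 and 3.38) were above the median of all rows in each.

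**Figure D2:**
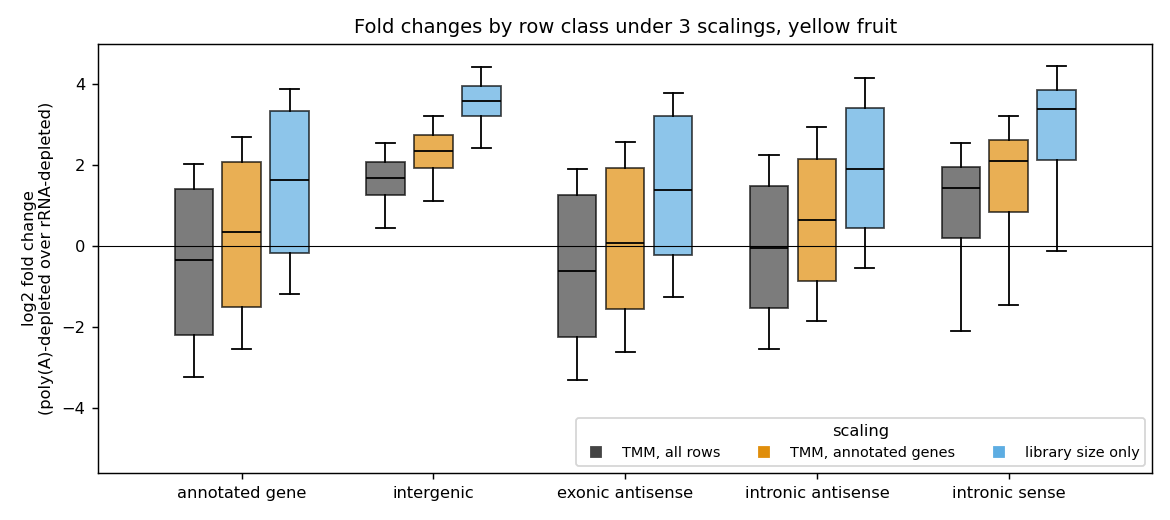
Log2 fold change of poly(A)-depleted over rRNA-depleted yellow libraries for all tested rows of each class, under 3 scalings; boxes span the quartiles, the line is the median and whiskers run from the 10th to the 90th percentile of rows, not of libraries. The whole set of boxes moves up from TMM over all rows (grey) to library totals alone (blue), and the intergenic boxes stay above 0 in each.

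Calls were then compared across these 3 scalings. All 17352 rows called higher with TMM over all rows (35%) were also called higher under the other scalings, whose factors move every row up, so that they had to hold. Median-of-ratios factors, which move rows the other way, gave 33.6% higher and 35% lower. Of the 16257 rows called lower, 4327 were lower under each (8.72% of all rows). These lower rows were 2942 genes, 1329 exonic antisense rows, 44 intergenic rows, 9 intronic antisense rows and 3 intronic sense rows. Counts of higher rows also depended on single libraries. Intergenic rows called higher numbered 4649 of 11545, 3692 of 11578 and 4272 of 11384 tested without poly(A)-depleted library 1, 2 or 3. They numbered 4584 of 9917, 7729 of 9920 and 7431 of 9919 without rRNA-depleted library 1, 2 or 3, of which library 2 stood apart. Each of these fits has 1 library fewer, and the median log2 fold change of intergenic rows stayed between 1.46 and 2.12. Genes called higher numbered 3805, 2744, 3204, 4265, 7594 and 7085 in the same order, of 24837 to 26214 tested. Exonic antisense rows called higher numbered 1613, 1236, 1381, 1877, 3281 and 3088 in the same order, of 11972 to 12516 tested. The intron-based classes moved as much, over 63 to 172 higher and 57 to 107 lower intronic antisense rows and 57 to 115 and 11 to 21 intronic sense rows.

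Length and exon number described part of the variation among intergenic rows. Of rows with summed exons under 500 bases, 27.4% were called higher (94 of 343), rising to 48.0% from 500 and 68.4% from 1000 bases and 83.1% at 2000 bases and over. The median log2 fold change hardly moved over these bins, at 1.47, 1.76, 1.70 and 1.63, and longer rows collect more counts. Rows with 1 exon were called higher in 68.4% of cases and rows with 2 or more exons in 55.0%. By chromosome the share called higher lay between 65.5% on chromosome 7 and 69.5% on chromosome 3, so the pattern ran across the genome.

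The 308 intergenic rows that were lower in poly(A)-depleted libraries were more abundant and more often spliced than the rest. Their median level in rRNA-depleted libraries was 13.1 CPM (counts divided by the TMM-scaled library size), against 1.33 CPM for all intergenic rows tested and 1.63 CPM for those called higher. Of the lower rows 12.3% were spliced, that is, had 2 or more exons, against 4.65% of all tested. For the 44 rows lower under all 3 scalings, the median level was 66.7 CPM and 15.9% were spliced. The level in rRNA-depleted yellow libraries enters the comparison itself, so these levels are a description.

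Single-exon intergenic rows without any assembled locus on the other strand, 10091 in number, carried counts almost throughout: 0.733% were at 0 in the 6 yellow libraries. Of 8847 tested, 6099 were called higher and 247 lower, and their median log2 fold change was 1.69. Their counts followed their length, with Spearman's rho across rows of 0.819, 0.819 and 0.826 in the poly(A)-depleted libraries and 0.782, 0.633 and 0.755 in the rRNA-depleted ones. Rows are not independent replicates, and longer rows collect more reads by construction.

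Per kilobase, the longest of these rows lay closer to one another in level than the shorter ones. Among the 418 rows of 4000 bases and over, the median was 8.24, 10.6 and 11.1 CPM of the library total per kilobase in the 3 poly(A)-depleted libraries, and 0.725, 0.379 and 1.43 in the rRNA-depleted libraries. No library of one kind reached the other. The 90th percentile of rows stood 2.32 to 2.46 times above the 10th in poly(A)-depleted libraries. That ratio in rRNA-depleted libraries 1, 2 and 3 was 2.47, 6.28 and 3.22, and it was widest in the library that stood apart. Shorter rows spread more in both kinds. From 1000 to under 2000 bases the ratio was 5.63, 6.31 and 5.47 in the poly(A)-depleted libraries, and 5.73 and 11.25 in rRNA-depleted libraries 1 and 3. From 500 to under 1000 bases it was 42.3, 77.9 and 26.4 in the poly(A)-depleted libraries, and 14.8 and 29.8 in rRNA-depleted libraries 1 and 3. In rRNA-depleted library 2 the 10th percentile was 0 in both of these bins, so no ratio can be given.

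**Figure D3:**
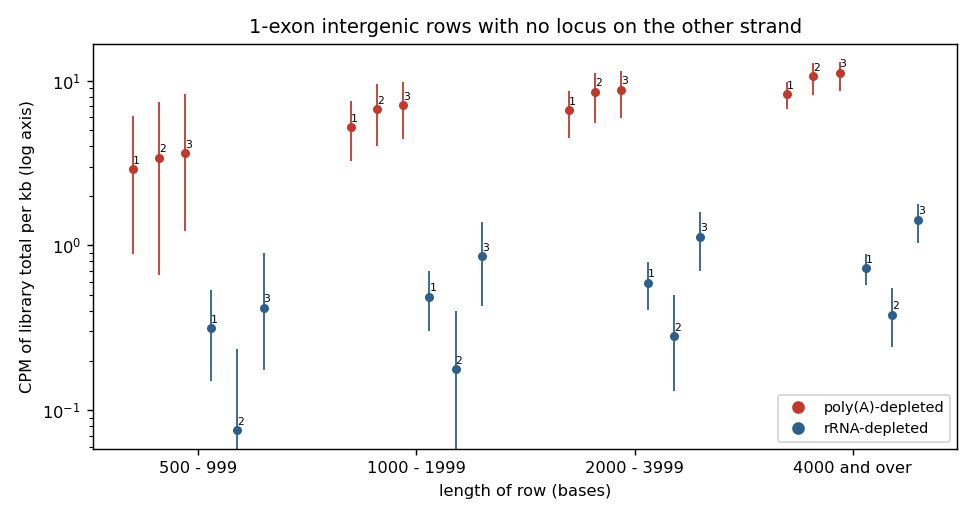
CPM of the library total per kilobase (log axis) for 1-exon intergenic rows with no locus on the other strand, by length of the row in bases; points are medians over rows, lines run from the lower to the upper quartile of rows, and numbers name the library. Poly(A)-depleted libraries (red) lie above rRNA-depleted ones (blue) in each length bin, with medians of 8.24 to 11.1 against 0.379 to 1.43 in rows of 4000 bases and over, and rRNA-depleted library 2 is lowest; its lower quartile is 0 in the shortest bin.

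An assembled locus on the other strand went with missing counts. Where such loci covered all bases of a 1-exon intergenic row, 2639 of 2642 rows were at 0 in all 18 libraries. Where they covered over 0.5 of the bases but not all, 29.1% of 4660 rows were at 0 in the 6 yellow libraries, and where they covered up to 0.5, 0.923% of 1084 rows were. No source used here describes the counting step behind these zeros, and a row at 0 is not evidence that its RNA was absent.

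The rRNA-depleted libraries were several times as deep, and detection has to be read with that. At the full depth, intergenic rows with at least 10 counts made up 50.6%, 51.1% and 52.4% of the class in the poly(A)-depleted and 50.6%, 37.2% and 53.0% in the rRNA-depleted libraries. Scaled down to the smallest total of 9488099 counts, the expected shares were 50.6%, 50.3% and 52.4% against 20.0%, 11% and 30.4%. At equal depth the poly(A)-depleted libraries therefore detected more intergenic rows, and no library of one kind overlapped the other. The same held for annotated genes, at 85.9%, 84.6% and 86.5% against 66.7%, 51.3% and 71.6%.

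The named intergenic rows show both directions at the scale of single loci; they are those with the largest fold change each way among rows called under all 3 scalings, without overlap between the kinds and with a mean of at least 2 CPM in the higher kind. LINC.XLOC_007042 (chromosome 2, 19002400 to 19003656, minus strand, 1 exon) had 1.47, 2.67 and 3.49 CPM in the poly(A)-depleted libraries and 0.307, 0 and 0 CPM in the rRNA-depleted ones, from 25, 61 and 77 counts against 12, 0 and 0. Its log2 fold change was 4.49 ± 1.18 (adjusted p = 0.0103), and without rRNA-depleted library 1, the only one of its kind with counts, the fitted value of 9.0 depends on the prior count. LINC.XLOC_027688 (chromosome 6, 17779785 to 17781862, minus strand) had 1.1, 2.98 and 2.17 CPM against 0.256, 0 and 0.0245 CPM, a log2 fold change of 4.32 ± 1.06 (adjusted p = 0.00764), and 6.66 without rRNA-depleted library 1, when 1 count remains in its kind. LINC.XLOC_027987 (chromosome 6, 22065639 to 22066591, minus strand) had 2.11, 2.32 and 1.99 CPM against 0.282, 0.0407 and 0 CPM, with 4.21 ± 1.03 (adjusted p = 0.00775), and 6.61 without rRNA-depleted library 1, when again 1 count remains. All 3 rest on at most 12 counts in any rRNA-depleted library.

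The intergenic rows that were lower are among the more abundant of their class. LINC.XLOC_024314 (chromosome 6, 14775015 to 14775435, plus strand, 1 exon) had 2.23, 1.45 and 1.18 CPM in the poly(A)-depleted libraries and 100.1, 375 and 111.5 CPM in the rRNA-depleted libraries. The kinds lie far apart, and the log2 fold change was -6.92 ± 0.74 (adjusted p = 0.000567). LINC.XLOC_020291 (chromosome 5, 21264092 to 21265255, plus strand) had 1.64, 0.964 and 0.996 CPM against 29.4, 109.6 and 54.4 CPM, with -5.75 ± 0.60 (adjusted p = 0.000567). LINC.XLOC_008400 (chromosome 3, 8519139 to 8521493, plus strand) had 19.9, 67.7 and 17.6 CPM against 231.2, 7474 and 548.2 CPM, so that library 2 was the highest of its kind on both sides. Its log2 fold change of -6.29 ± 1.57 (adjusted p = 0.00833) was -3.55 without rRNA-depleted library 2.

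The single intergenic rows with the largest shares went opposite ways. LINC.XLOC_011639 (chromosome 3, 14119587 to 14122254, minus strand) held 0.0695%, 0.0119% and 0.0140% of poly(A)-depleted counts and 0.152%, 0.0250% and 0.0503% of rRNA-depleted counts, with library 1 highest in both kinds and overlapping shares. On TMM-scaled CPM the kinds did not overlap and the log2 fold change was -3.03 ± 1.0 (adjusted p = 0.0246). The call was lost with library totals alone (-1.25, adjusted p = 0.228) and without poly(A)-depleted library 2 (adjusted p = 0.0916) or 3 (0.0739) or rRNA-depleted library 1 (0.0678). LINC.XLOC_026309, a 1-exon row of 14575 bases (chromosome 6, 425861 to 440435, minus strand), held 0.0239%, 0.0362% and 0.0327% against 0.00231%, 0.00293% and 0.00567% without overlap, and its log2 fold change was 1.04 ± 0.45 (adjusted p = 0.0647; 0.0288 with a replicate block). Its call therefore depended on the fit, and under library totals alone it was 3.09 (adjusted p = 0.00171).

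Annotated genes are for the most part messenger RNAs, and their behaviour followed their level in rRNA-depleted libraries of the other stages. Levels were taken from the rRNA-depleted green and brown libraries, which the yellow comparison does not use, in CPM of the library total and not per length. Among genes at 100 CPM and over, 1238 of 1372 (90.2%) were lower in poly(A)-depleted yellow libraries and 18 (1.31%) higher, and at 10 to 100 CPM 84.3% were lower and 1.63% higher. At 1 to 10 CPM 39.9% were higher and 18.2% lower, and at 0.1 to 1 CPM 46.9% were higher and 3.83% lower. Median log2 fold changes ran from -3.42 in the most abundant bin through -2.20, 0.81 and 1.77 to 2.33 under 0.1 CPM. With library totals alone they ran from -1.37 through -0.16, 2.76 and 3.66 to 4.19, so the order of the bins was the same under both scalings while the point at which the sign changed was not.

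Exonic antisense rows, and intergenic rows at the highest levels, showed the same order. Of exonic antisense rows, 93.3% were lower at 100 CPM and over and 88.1% at 10 to 100 CPM, against 4.06% at 0.1 to 1 CPM, where 46.3% were higher. Of the 12 intergenic rows at 100 CPM and over, 12 were lower, and at 10 to 100 CPM 50.9% of 224 rows were lower and 33.0% higher. At 1 to 10 CPM, however, 81.5% of 5167 intergenic rows were higher, against 39.9% of genes and 27.5% of exonic antisense rows in the same bin. By this level 236 of 10793 intergenic rows tested were at 10 CPM and over, against 9695 of 25661 genes. The level comes from rRNA-depleted libraries, 1 of the kinds compared, and the order depended in part on that, most of all for intergenic rows. By the mean of the 6 yellow libraries, 1131 intergenic rows were at 10 to 100 CPM, of which 82.6% were higher and 10.7% lower, and 14 of 16 rows at 100 CPM and over were lower. Genes and exonic antisense rows at 10 to 100 CPM by that mean were lower in 80.9% and 81.1% of cases. Under 10 CPM by that mean, the order of their median log2 fold changes did not hold. Genes had medians of 1.118 at 0 to 1 CPM and 1.193 at 1 to 10 CPM, and exonic antisense rows 0.139 and 0.549. The share called lower still rose between these bins, from 6.97% to 12.2% of genes and from 13.1% to 24.3% of exonic antisense rows. The difference between classes within a bin was not tested.

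**Figure D4:**
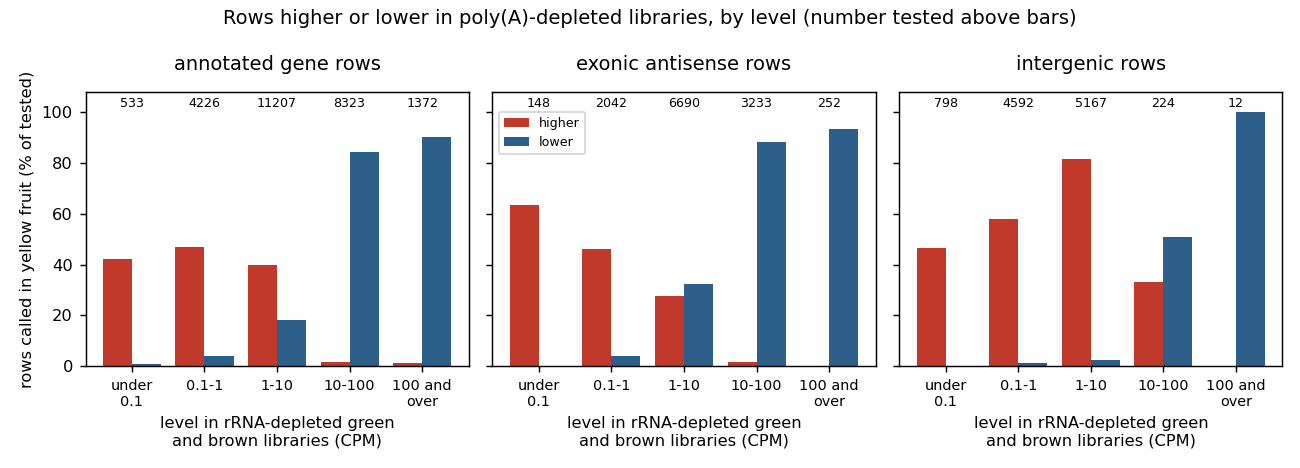
Percent of tested rows called higher (red) or lower (blue) in poly(A)-depleted yellow libraries, by the mean level of the row in rRNA-depleted green and brown libraries (CPM), for genes, exonic antisense rows and intergenic rows, with the number tested above each bin. Lower calls dominate from 10 CPM upward in genes and exonic antisense rows (84.3% and 88.1% at 10 to 100 CPM), while intergenic rows at 1 to 10 CPM are called higher in 81.5% of cases.

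Among genes chosen by the same rule with a mean of at least 10 CPM, the largest rises were small in counts. FvH4_c20g00010 had 11.4, 11.4 and 11.5 CPM in poly(A)-depleted libraries and 2.20, 0 and 1.13 CPM in rRNA-depleted ones, and FvH4_4g13900 had 12.3, 12.6 and 11.6 CPM against 2.51, 0 and 1.42 CPM. The zeros lie in rRNA-depleted library 2 in both, and the other libraries also stand apart between the kinds. Their log2 fold changes were 3.33 ± 0.91 (adjusted p = 0.0119) and 3.18 ± 0.91 (adjusted p = 0.0148). The largest falls were larger in size. FvH4_3g04300 had 0.762, 0.351 and 0.317 CPM without tailed RNA against 48.7, 87.0 and 61.5 CPM in rRNA-depleted libraries, a log2 fold change of -7.13 ± 0.53 (adjusted p = 0.000567). FvH4_6g27280 had 1.47, 2.67 and 0.860 CPM against 115.2, 368.8 and 136.7 CPM, with -6.95 ± 0.76 (adjusted p = 0.000567). In both genes the highest library of the poly(A)-depleted kind stayed far below the lowest rRNA-depleted one, where the rule required no overlap.

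The genes with the largest single shares of the poly(A)-depleted libraries lay mostly on 1 contig. Those with IDs beginning FvH4_c1g, taken as contig 1, are 74 in number and took 16.4%, 13.4% and 15.0% of the poly(A)-depleted counts and 2.70%, 1.23% and 2.58% of the rRNA-depleted counts. The kinds do not overlap, and the ratio of the means was 6.87. Of the 20 genes with the largest mean share of poly(A)-depleted counts, 18 were on contig 1 and 1 on another contig; in rRNA-depleted libraries 1 of 20 was on contig 1. These 20 genes together held 8.47% of the poly(A)-depleted counts. What these contigs hold is not given in the files.

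Row by row the contig 1 genes were less uniform than their share. Of 73 tested, 33 were higher and 5 lower, beside 26.6% higher and 40.8% lower over all genes tested, and the median log2 fold change was 1.6. FvH4_c1g00230 held 0.881%, 0.762% and 0.840% of poly(A)-depleted counts and 0.102%, 0.0306% and 0.119% of rRNA-depleted counts, and FvH4_c1g00400 held 0.807%, 0.688% and 0.765% against 0.0741%, 0.00709% and 0.0886%. The kinds are far apart in both, yet neither was called with TMM over all rows (log2 fold changes 1.42 ± 0.87, adjusted p = 0.167, and 1.94 ± 0.97, adjusted p = 0.0972). With a replicate block FvH4_c1g00400 reached an adjusted p of 0.0362, and with library totals alone both were called (3.30 and 3.74, adjusted p = 0.00615 and 0.0101). The smaller contig 3, with 23 genes, took 2.1 ± 0.534% of the counts without tailed RNA and 0.594 ± 0.223% without rRNA. Of its 22 tested genes 9 were lower, a share near that of all genes (40.8%), and 1 was higher.

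Genes almost silent in the rRNA-depleted libraries of the other stages still gave counts without tailed RNA. The 1783 genes with at most 10 counts over the 6 rRNA-depleted green and brown libraries summed to 178.7, 193.2 and 239.4 CPM of the library total in the poly(A)-depleted yellow libraries. In the rRNA-depleted yellow libraries they summed to 25.9, 4.52 and 20.7 CPM, lowest in the library that stood apart, and the kinds did not overlap (204 ± 31.7 against 17.0 ± 11.2, mean ± SD, n = 3). The rule picks genes by low counts in one kind of library, so the 93 of them that passed the count filter could do so mainly through the other kind, and no count of their calls is given.

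Exonic antisense rows lie opposite to exons, so the strand assignment of each read decides what they count, and no source used here gives that setting. For 462 of 12662 rows (3.65%), 1 gene on the same chromosome had counts within a ratio of 0.9 to 1.1 in every library where both had at least 20 counts. Of these 156 were higher and 159 lower, and their share of the counts was 1.04% in the poly(A)-depleted libraries and 2.78% in the others. These shares leave out exonAS.XLOC_011569, described next, which alone held more of the rRNA-depleted counts, so they do not give all counts that a row may share with a gene. Counts of such a row and of its gene cannot be told apart here. Among the remaining 11903 tested rows 2781 were higher and 5172 lower.

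The exonic antisense rows with the largest share also had counts close to those of a gene. exonAS.XLOC_011569 (chromosome 3, 13172900 to 13178274, minus strand) held 0.363%, 0.210% and 0.145% of poly(A)-depleted counts and 5.23%, 5.16% and 8.18% of rRNA-depleted counts, and in the 6 yellow libraries its counts were 1.0 to 1.02 times those of FvH4_3g20030. It is not among the 462 rows, because in 1 of 18 libraries, poly(A)-depleted brown library 3, the ratio was 1.13. The kinds stand wide apart, but the adjusted p was 0.0700 for the row and 0.0697 for the gene (log2 fold changes -6.68 ± 2.98 and -6.70 ± 2.98), and 0.0265 and 0.0263 with a replicate block. exonAS.XLOC_018468 (chromosome 4, 31267369 to 31268005, minus strand) held 0.0407%, 0.678% and 0.139% against 0.177%, 3.36% and 1.24%, at 1.02 to 1.04 times the counts of FvH4_4g32700, and is among the 462. Library 2 was highest and library 1 lowest in both kinds, and the kinds overlapped. Its log2 fold change of -4.91 ± 2.30 (-3.16 without rRNA-depleted library 2) was not called (adjusted p = 0.0813) and was with a replicate block (adjusted p = 0.0228), as was that of FvH4_4g32700 (-4.89 ± 2.28, adjusted p = 0.0804 and 0.0222, and -3.14 without that library).

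Among exonic antisense rows the direction of the calls went with length. Under 500 bases 2.82% were higher and 76.0% lower, at a median log2 fold change of -2.89. From 500 bases 14.0% were higher and 51.7% lower (median -1.45), from 1000 bases 22.5% and 41.6% (-0.45), and at 2000 bases and over 35.3% and 35.1% (0.11). The order was the same with library totals alone, where the medians were -0.92, 0.53, 1.54 and 2.09.

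The exonic antisense rows with the largest rises resembled the intergenic ones in level. exonAS.XLOC_008060 (chromosome 3, 4118030 to 4119272, plus strand) had 2.64, 2.94 and 1.95 CPM against 0.230, 0 and 0.123 CPM, a log2 fold change of 4.27 ± 0.87 (adjusted p = 0.00345). exonAS.XLOC_013355 (chromosome 3, 36829941 to 36831344, minus strand) rose by 3.85 ± 0.88 and exonAS.XLOC_019323 (chromosome 5, 9312993 to 9313963, plus strand) by 3.81 ± 0.97, both at about 2 CPM against 0.142 and 0.153 CPM on average (adjusted p = 0.00567 and 0.00904). All 3 had 0 counts in rRNA-depleted library 2.

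The falls were larger. exonAS.XLOC_018710 (chromosome 5, 737190 to 737583, plus strand) had 0 counts in all 3 poly(A)-depleted libraries and 118, 61 and 54 counts in the rRNA-depleted ones. Against a floor of 3 counts over the poly(A)-depleted group it was at least 46.1-fold lower (adjusted p = 0.00115), and that floor covers counting error only. exonAS.XLOC_003607 (chromosome 2, 265865 to 266457, plus strand) had 2, 0 and 4 counts against 1480, 457 and 817, a log2 fold change of -7.97 ± 0.71 (adjusted p = 0.000567). exonAS.XLOC_018476 (chromosome 4, 31390111 to 31392426, minus strand) had 2.87, 5.65 and 3.80 CPM against 85.1, 3072 and 247.3 CPM. Its log2 fold change was -8.11 ± 1.53 (adjusted p = 0.00240) and -5.40 without rRNA-depleted library 2, which was the highest.

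Intron-based rows were few but followed their length in the same way. Intronic antisense rows under 500 bases were higher in 5.56% and lower in 35.7% of 126 tested rows, and at 2000 bases and over in 70.1% and 5.97% of 67. Intronic sense rows were higher in 10.5% of 19 rows under 500 bases and in 72.7% of 44 rows at 2000 bases and over. RNA counted within an intron can come from a transcript of its own or from a gene's unspliced RNA, and these cannot be told apart here.

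Among intronic antisense rows, intronAS.XLOC_016234 (chromosome 4, 2857045 to 2857910, minus strand) had 1.88, 2.32 and 2.08 CPM against 0.359, 0 and 0.270 CPM, a log2 fold change of 3.23 ± 0.90 (adjusted p = 0.0128). intronAS.XLOC_028255 (chromosome 6, 25220842 to 25223109, minus strand) had 5.86, 6.84 and 6.02 CPM against 1.25, 0.285 and 0.810 CPM, with 2.96 ± 0.54 (adjusted p = 0.00205). In both, all poly(A)-depleted libraries lay above all rRNA-depleted ones, as the rule for named rows required. On the other side, intronAS.XLOC_011281 (chromosome 3, 9277535 to 9278141, minus strand) had 0.586, 0.614 and 0.272 CPM against 58.7, 203.0 and 45.1 CPM, with -7.70 ± 0.80 (adjusted p = 0.000567). intronAS.XLOC_006827 (chromosome 2, 15742515 to 15743029, minus strand) had 1, 1 and 11 counts against 289, 198 and 172, with -4.96 ± 0.79 (adjusted p = 0.00115).

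Among intronic sense rows, INTRONIC.XLOC_028459 (chromosome 6, 28105837 to 28106708, minus strand) had 2.23, 2.45 and 2.99 CPM against 0.359, 0 and 0.0736 CPM, a log2 fold change of 4.03 ± 0.95 (adjusted p = 0.00659). INTRONIC.XLOC_020536 (chromosome 5, 24138869 to 24139562, plus strand) had 1.99, 3.46 and 3.76 CPM against 0.307, 0 and 0.393 CPM, with 3.63 ± 0.89 (adjusted p = 0.00787). Here too the zeros were in rRNA-depleted library 2. INTRONIC.XLOC_008090 (chromosome 3, 4439614 to 4439848, plus strand) had 0.293, 0.219 and 0.0905 CPM against 10.04, 23.1 and 13.7 CPM, with -6.28 ± 0.55 (adjusted p = 0.000567). INTRONIC.XLOC_033033 (chromosome 7, 23862296 to 23863033, minus strand), the single named row with 2 exons, had 1, 22 and 4 counts against 103, 1063 and 464, with -5.50 ± 1.15 (adjusted p = 0.00396).

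**Figure D5:**
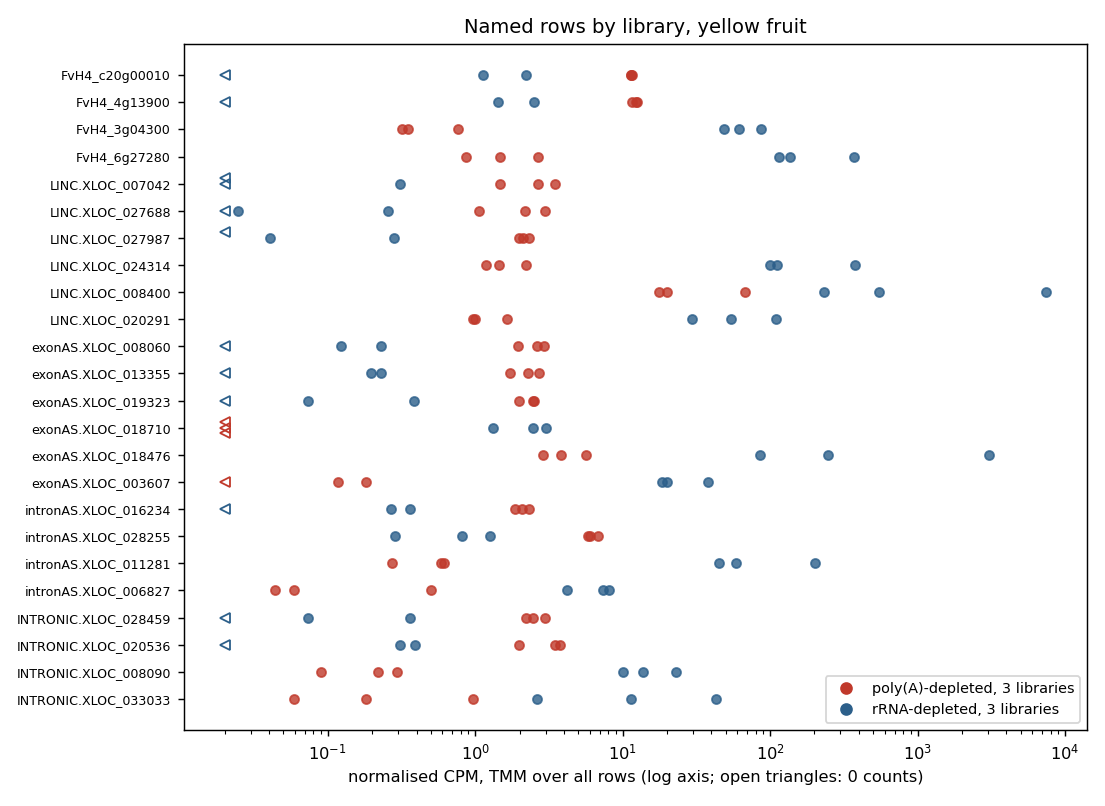
TMM-scaled CPM (log axis) of the rows with the largest rises and falls of each class in each yellow library, poly(A)-depleted in red and rRNA-depleted in blue; open triangles at the left edge are libraries with 0 counts. The colours do not overlap in any row because the rule required it, and rows that were higher without tailed RNA reach at most about 12.6 CPM, while those that were lower reach up to 7474 CPM in rRNA-depleted libraries.

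At the green stage most rows called at yellow in the larger lists were called the same way. The fit to the 6 green libraries called 71.7% of its tested rows, 38.9% higher and 32.8% lower. Of the intergenic rows higher at yellow 6353 were also higher at green, which is 86.8% of the yellow list and 83.3% of the green list, and none was lower there. Of all intergenic rows tested at green 77.4% were higher, which the 86.8% comes near. For genes the shared rows were 5388 higher (78.9% of yellow, 71.0% of green) and 8799 lower (84.1% and 83.1%), with 134 and 81 of the yellow rows called the opposite way at green. For exonic antisense rows 2268 higher rows (77.2% and 70.2%) and 4129 lower rows (77.5% and 84.4%) were shared. Over all rows tested at green, 30.1% of genes were higher and 42.0% lower. For exonic antisense rows these shares were 26.3% and 39.8%. The short lists of lower rows were shared less: 177 of 308 intergenic rows (57.5%, with 10 called the opposite way), 53 of 128 intronic antisense rows (41.4%) and 9 of 26 intronic sense rows (34.6%). In these classes, in that order, 2.45%, 12.6% and 7.55% of all rows tested at green were lower.

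At the brown stage few rows were called, 5.87% in all, with 1.65% higher and 4.22% lower. The number called depends on the spread between replicates as well as on the effect, so it does not measure the size of the effect. The median log2 fold change at brown was 0.97 for intergenic rows and -0.09 for genes, against 1.46 and -0.25 at green. Of the 279 intergenic rows higher at brown 260 were higher at yellow too (93.2% of brown, 3.55% of yellow). Of the 1207 genes lower at brown 1197 were lower at yellow (99.2% and 11.4%). Over all rows tested at yellow, 67.8% of intergenic rows were higher and 40.8% of genes lower. No row of any class called at brown was called the opposite way at yellow. Called in the same direction at all 3 stages were 252 intergenic rows and 248 genes that were higher, and 34 intergenic rows and 1146 genes that were lower.

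Whether the difference between the kinds was itself larger or smaller at yellow was tested in a fit to all 18 libraries, as the yellow effect minus the mean of the green and brown effects. By edgeR's quasi-likelihood test 1 of 52101 rows was called, 0.00192%, and 11304 had an unadjusted p under 0.05. Among the latter were 7240 of 26494 genes, 3640 of 12561 exonic antisense rows and 355 of 12103 intergenic rows. The low number of calls is therefore not evidence that the effect was equal at all stages. The row called was intergenic. That row, LINC.XLOC_013279 (chromosome 3, 35724422 to 35726088, minus strand, 1 exon), had 5.48, 5.28 and 4.56 CPM in poly(A)-depleted and 35.7, 26.5 and 26.3 CPM in rRNA-depleted yellow libraries. At green it had 3.98 ± 0.488 CPM in poly(A)-depleted against 1.86 ± 0.335 CPM in rRNA-depleted libraries, and at brown 6.74 ± 2.28 against 12.6 ± 2.57 CPM. The kinds thus stood in the opposite order at green. The effects were -2.53 at yellow, 1.1 at green and -0.91 at brown, and the difference was -2.63 ± 0.37 (adjusted p = 0.0290). The contrast called 0 rows with TMM over annotated genes, with library totals alone, or without any 1 of the poly(A)-depleted yellow libraries or rRNA-depleted library 1, and 56 rows without rRNA-depleted library 2 and 2 without library 3. With a replicate block within each stage it called 216 rows with a higher and 8760 with a lower effect at yellow. Equal numbers deviated together at yellow and green. At brown they did so in replicates 1 and 3 (correlations 0.720 and 0.550) but not in replicate 2 (-0.069). Whether the numbers pair the brown libraries is therefore not settled.

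Against the green stage alone, a contrast chosen after the data were seen, the yellow effect differed in many rows. In a fit to the 12 green and yellow libraries 22.8% of 51110 rows were called, 764 (1.49%) with a higher and 10897 (21.3%) with a lower effect at yellow. Of these lower effects 7038 were genes, 3623 exonic antisense rows and 184 intergenic rows. The balance again followed the scaling, with 1170 higher and 7560 lower with TMM factors from the genes and 1582 and 1648 with library totals alone. LINC.XLOC_013279 was called here too, at -3.63 ± 0.33 (adjusted p = 0.000455).

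Genes that change between green and brown fruit ordered the yellow libraries alike in both kinds. Genes called between brown and green fruit in the same direction in both kinds served as a scale: 95 were higher in brown and 1002 lower. Of all rows, 21.1% were called between these stages in rRNA-depleted libraries, 8.46% as higher and 12.6% as lower in brown, and 3.57% in the other kind, 0.319% as higher and 3.25% as lower. The median log2 CPM of the 95 genes was 2.84, 3.90 and 3.10 in poly(A)-depleted libraries 1, 2 and 3, and 3.71, 8.21 and 5.95 in the rRNA-depleted ones. Library 1 was lowest and library 2 highest in both kinds. The 1002 genes lower in brown had medians of 3.01, 2.38 and 2.43 in the former and 4.52, 2.60 and 3.43 in the latter, so library 1 was highest and library 2 lowest in both. In whole fruit, fewer cells of a type and less RNA per cell cannot be told apart.

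Genes higher in brown than in green fruit were mostly lower without tailed RNA. Of the 95 genes higher in brown fruit, 68 were lower and 0 higher in poly(A)-depleted yellow libraries, and the median log2 fold change was -3.76. Of 990 tested genes lower in brown fruit, 470 were lower and 36 higher, with a median of -1.51. Over all genes tested 40.8% were lower, which the second list comes near. Both medians lie below the median of all genes tested (-0.34); among all genes at 10 CPM and over, 84.3% to 90.2% were lower.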

How the data were processed

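The authors deposited 1 table of raw counts, whole and unscaled in each library, per the file headers, and the exon positions of assembled transcripts, whose source column names Cufflinks. Tools listed without roles in the submitters' processing notes are TopHat2 2.1.2, STAR 2.5.4b and Trim Galore 0.4.2; which program counted reads, with what strand setting, build and annotation, is not given in the sources used here. Positions of lncRNA rows are printed as deposited, counted from 1, on chromosomes named Fvb and a number; all 33175 lncRNA rows had one. Of 28588 gene IDs, 0 matched the 24946 rows of the gene table for FraVesHawaii_1.0.

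Counts were compared with edgeR 4.0.16 (R 4.3.3, limma 3.58.1): filterByExpr with the group factor, TMM over all rows, a quasi-likelihood F test between the 3 poly(A)-depleted and 3 rRNA-depleted yellow libraries, and Benjamini-Hochberg adjustment over all 49630 rows tested. Calls are at an adjusted p under 0.05, and standard errors were derived from the F statistic. The edgeR fits to the yellow libraries and to all 18 libraries were tested on simulated counts without a general difference in composition between the kinds. The other steps were not tested in this way. CPM use the TMM-scaled library size unless the library total is named. Shares were compared by exact permutation (Python 3.11.15, scipy 1.17.1). Green and brown libraries had fits of their own, and a fit to 18 libraries tested the yellow effect against the mean of the other stages. Alternatives were other scalings, DESeq2 1.42.0, other filters and thresholds, other rows or libraries in the fit, and a replicate block.

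Named rows had the largest fold changes each way per class among rows called under 3 scalings, without overlap, and averaging 10 CPM or more (genes) or 2 CPM or more (other classes) where higher: 2 genes, 3 intergenic, 3 exonic antisense, 2 intronic antisense and 2 intronic sense rows each way; added were the 2 genes, intergenic and exonic antisense rows of largest mean share in each kind. For the contrast of stages 1 row passed. The comparison, lists and alternatives were chosen with earlier results of these data known. Levels from the other stages, rows without an opposite locus, and yellow against green alone were added after seeing the data. Shares without the rows of largest share and exonAS.XLOC_011569 were also added then. That row is itself the row of largest share in the rRNA-depleted kind, so this setting repeated the planned one. At yellow, libraries with equal replicate numbers deviated from their group means together (correlations 0.455, 0.384 and 0.446 across rows with a mean of at least 5 CPM). A pairing by number is therefore read from the data and not the labels, and only the fits with a replicate block use it. The main fit, with its calls, standard errors and adjusted p, treats the libraries as unpaired. Counts have no molecular identifiers, and p-values measure the spread between pooled replicates.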

Additional observations from a re-analysis of the deposited data

Results flagged for a closer look

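The effect of library kind on LINC.XLOC_013279 differed between stages by the test of the difference itself. The log2 fold change of poly(A)-depleted over rRNA-depleted libraries was -2.53 at yellow, 1.1 at green and -0.91 at brown, and yellow minus the mean of the other stages was -2.63 ± 0.37 (edgeR's quasi-likelihood test, Benjamini-Hochberg adjusted p = 0.0290 over 52101 rows). It was lower in poly(A)-depleted libraries in 3 of 3 yellow libraries, and the call depended on the scaling and on single libraries.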

How the results depend on the processing

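Among the named rows, 523 of the alternative values kept direction and side of the threshold, 29 newly passed it, 9 no longer did and none changed sign. Rows named for their fold change had to be called under TMM over annotated genes and under library totals alone. Their agreement there was fixed in advance, and a change of sign was unlikely for the largest fold changes. The tally is therefore a description. The class counts stayed within 1.5 times with DESeq2, median-of-ratios factors, no low-count filter, a log2 fold change of at least 1, all 18 libraries in the fit, the largest-share rows left out, and a replicate block (genes 6698 higher and 10338 lower, intergenic rows 7003 and 278); among the named rows the block changed only the calls given in the report. Elsewhere the cause was not tested. TMM over annotated genes left 69 lower intronic antisense and 15 lower intronic sense rows. Library totals alone gave 13679 higher and 2943 lower genes, 44 lower intergenic, 6080 and 1330 exonic antisense, 309 and 9 intronic antisense and 3 lower intronic sense rows. A minimum of 1 CPM in 3 libraries left 70 lower intronic antisense and 12 lower intronic sense rows. An adjusted p under 0.01 left 2044 higher genes, 2997 higher and 188 lower intergenic, 914 higher exonic antisense, 52 and 48 intronic antisense, and 50 and 12 intronic sense rows. Without exonic antisense rows 4346 genes were higher. Leaving out 1 library at a time gave 2744 to 7594 higher and 8595 to 11024 lower genes, 3692 to 7729 and 215 to 272 intergenic, 1236 to 3281 and 4348 to 5546 exonic antisense, 63 to 172 and 57 to 107 intronic antisense, and 57 to 115 and 11 to 21 intronic sense rows. The differences in shares kept their direction. Without contig genes they were -10.6 points for genes, -4.74 for exonic antisense and 14.8 for intergenic rows, and without the row of largest share in each kind -9.80, -2.67 and 12.02. Leaving out 1 library gave -6.30 to -4.19 points for genes, 11.3 to 13.1 for intergenic, -8.18 to -7.15 for exonic antisense, 0.259 to 0.290 for intronic antisense, 0.162 to 0.189 for intronic sense and 12.0 to 13.5 for contig 1 genes.

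The contrast of yellow with green and brown gave 0 lower rows with TMM over annotated genes, with library totals alone and at an adjusted p under 0.01. Leaving out 1 yellow library gave 0 higher and 0 to 56 lower rows. Against green alone it gave 764 higher and 10897 lower rows. With a replicate block within each stage it gave 216 higher and 8760 lower rows. In brown fruit, libraries with equal numbers did not all deviate together (correlations 0.720, -0.069 and 0.550). Whether the numbers pair all samples there is not settled. Depth limits the poly(A)-depleted libraries, at 9.49 to 11.3 M counts, and rows with a few counts in rRNA-depleted libraries have fold changes that move with 1 library.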
